A study of Mus musculus with 12 samples.

Results

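Bone marrow-derived macrophages (BMDMs) of control mice were profiled without stimulation and after 4 h of lipopolysaccharide (LPS), with 3 arrays for each condition. These 6 arrays are all that carry a control label in a series of 12, and the other 6 hold the same 2 conditions in macrophages of knockout mice. The control mice were C57BL/6 females of genotype Trspfl/fl-LysM-Cre-/-: both copies of Trsp, the gene of the selenocysteine tRNA, carried loxP sites, and no Cre recombinase was present to delete them. The knockout (ΔTrspM) mice carried in addition a Cre driven by the promoter of lysozyme M, which acts in macrophages and other myeloid cells. Bone marrow cells of both genotypes were cultured for 7 days with M-CSF, the growth factor that turns them into macrophages, and Trsp itself is not analysed here. The labels number the arrays of each condition 1 to 3 and call them biological replicates, but they give neither the age of the mice nor the dose of LPS. RNA was hybridized to a mouse whole-genome GeneChip array, on which a probe set, a group of short probes, reports on 1 transcript. All 18193 genes that had a probe set with a single gene symbol were tested, whatever their response. Most genes named below were chosen by their values, as described under the processing.

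LPS is a component of the outer membrane of Gram-negative bacteria. It is handed by CD14 to the receptor TLR4 and its partner MD-2, which signal through MyD88 to NF-κB and the MAP kinases, and through TRIF to IRF3 and type I interferon. Interferon then acts back on the cell through JAK kinases and STAT proteins and induces antiviral genes, while a group of feedback inhibitors limits both arms.

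Levels are given as log2 of the quantile-normalized signal plus 16, so that a difference of 1 is a 2-fold change of that sum. The mean signal of a control array before this step ranged from 733.8 to 770.6 without stimulation and from 492.1 to 860.9 after LPS, and the number of arrays limits the precision. All 8 macrophage markers examined were measured, and none was called in either direction. The lowest linear signal on any array was 10680.9 for Csf1r, the M-CSF receptor, 11146.7 for Adgre1 and 6948.0 for Cd68. Of the markers of other cell types, those of mast, B and T cells, red cells, dendritic cells and endothelium had summed signals of at most 333.6 on any array, against at least 62898.9 for the macrophage markers. Of these low markers, 1 of 5 for dendritic cells (Zbtb46, 1.35) was called higher and 1 of 3 for red cells (Hba-a1) lower, and their part was not tested. Neutrophil markers summed to between 6332.6 and 11696.4 without LPS and to between 7681.4 and 17786.4 after it, and 1 of 7, Camp, was higher after LPS (log2 fold change 1.47, standard error 0.45, limma adjusted p = 0.0477). Stromal markers summed to between 409.4 and 8842.9 without LPS and to between 4453.3 and 5055.1 after it. Without Pdgfrb, which rose with LPS, these sums were 3047.6, 367.0 and 8669.8 without LPS and 2395.0, 837.1 and 2939.6 with it, so that replicate 2 was the lowest in both conditions. In RNA from bulk cultures, fewer cells of a type and less RNA per cell cannot be told apart.

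Unstimulated replicate 2 stood apart from the other unstimulated arrays. It was the highest of the 3 for 770 of the 1290 genes called higher after LPS (59.7%), against 31.5% of all genes. The mean level of 48 antiviral interferon-stimulated genes was 11.28 on it, against 8.74 and 8.70 on unstimulated replicates 1 and 3 and 12.40 to 12.53 after LPS. The corresponding unstimulated knockout array, also number 2, had a mean of 8.97 for these genes, against 8.64 and 8.42. Unstimulated replicate 2 had the lowest sum of stromal markers (409.4) and the lowest mean level of the cell cycle genes (9.15, against 10.33 and 11.01). Both traits were shared by other arrays numbered 2. Without Pdgfrb the stromal sum was also lowest on LPS replicate 2. The cell cycle mean was lowest on number 2 in LPS control cells too (8.40, against 9.24 and 9.92). In knockout cells it was 9.82 on number 2 without LPS, against 11.03 and 11.15, and 8.63 with LPS, against 9.75 and 9.95. What set this culture apart was not tested. Counts are therefore also given without it where they rest on it.

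**Figure D1:**
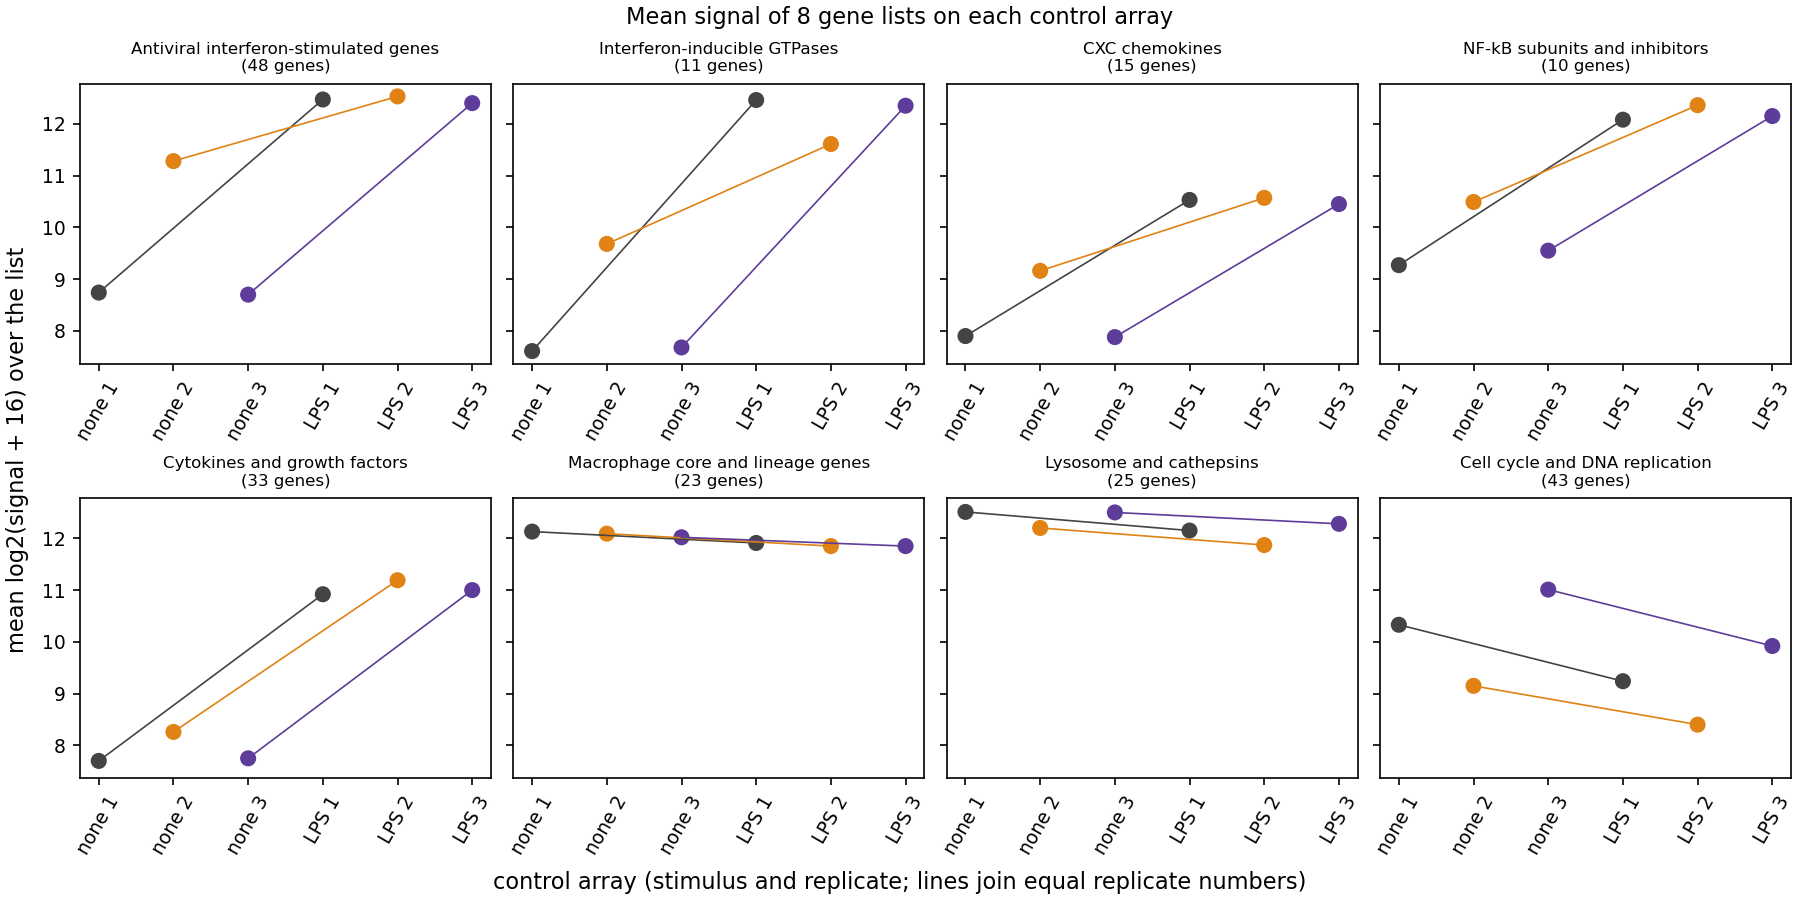
Mean log2(signal + 16) over the measured members of 8 gene lists (y axis) on each of the 6 control arrays (x axis: stimulus and replicate), with lines joining equal replicate numbers. Antiviral genes were at 11.28 on unstimulated replicate 2 and at 8.74 and 8.70 on the other 2 unstimulated arrays, whereas the macrophage core genes lay between 11.85 and 12.13 on all 6.

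After 4 h of LPS 1290 genes were higher (7.09% of 18193) and 1554 were lower (8.54%), or 15.6% in either direction, at an adjusted p under 0.05 from limma, adjusted by Benjamini-Hochberg across the tested genes. The rises were the larger changes. Among the genes called, 446 rose and 208 fell at least 4-fold, and 89 rose and 7 fell at least 16-fold. The median change was 1.54 among the genes called higher and -1.23 among those called lower, against -0.05 over all genes. The arrays of the groups did not overlap for 2675 genes higher after LPS (14.7%) and for 3525 genes lower after LPS (19.4%). Of the 2844 genes called, 2837 moved in the called direction in all 3 same-numbered pairs of cultures. Among the 1729 of them with more than 1 probe set, all probe sets had the same sign for 1412. With the replicate number as a block (paired cultures) 1664 genes were higher and 2444 were lower, and without unstimulated replicate 2 the counts were 1204 and 1334.

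**Figure D2:**
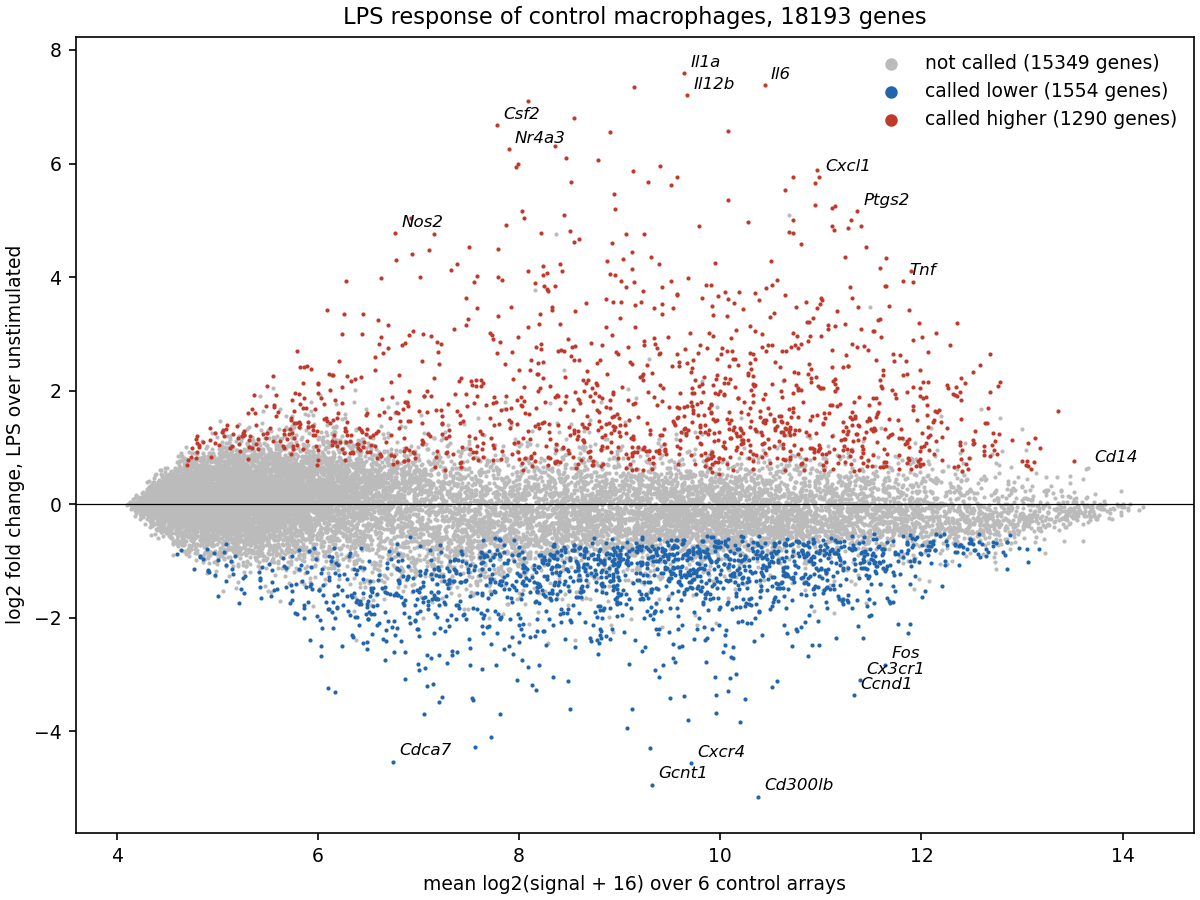
Log2 fold change by LPS in control macrophages (y axis) against the mean log2(signal + 16) over the 6 control arrays (x axis) for 18193 genes. Red points (1290 genes) were called higher and blue points (1554 genes) lower at an adjusted p under 0.05, and the rises reached further from 0 than the falls, up to 7.60 for Il1a against -5.15 for Cd300lb.

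The largest rises were those of inflammatory cytokines. Il1a, which encodes the alarm cytokine interleukin-1α, had levels of 5.69, 6.67 and 5.16 on the 3 unstimulated arrays and of 13.30, 13.52 and 13.49 after LPS. Its log2 fold change of 7.60 (standard error 0.38, limma adjusted p = 8.52e-07) was the largest of all genes on this scale. U90926, which was at the floor without LPS, was above it with log2(signal + 1) (8.61 against 8.10), and Il6 with log2(signal + 64) (6.82 against 6.69). U90926 was also above it without LPS replicate 3 (7.65 against 7.57), and Shisa3 without unstimulated replicate 3 (7.36 against 7.26). Csf2, also at the floor without LPS, reached 8.37 under an alternative, above the highest value of Il1a under any (8.10). For Il1a the unstimulated and stimulated cultures were separated by far more than the spread within either. Il6, the fever cytokine interleukin-6, went from 6.99, 7.40 and 5.86 to 14.10, 14.25 and 14.06, a difference of 7.38 (standard error 0.40, adjusted p = 1.17e-06). Its level after LPS was close to the highest level of any gene on these arrays, 14.25. Il12b, the subunit shared by interleukins 12 and 23, was at 5.66, 7.22 and 5.32 without LPS and at 13.14, 13.28 and 13.40 with it (7.21, standard error 0.39, adjusted p = 1.16e-06). Shisa3, which encodes a small membrane protein and is not a cytokine gene, rose as strongly, from 4.94, 5.96 and 5.51 to 12.45, 13.21 and 12.78. So did U90926, which was at the floor of the scale without LPS (4.43, 4.71 and 4.48) and at 11.27, 13.11 and 10.54 with it. Edn1, which encodes the vasoconstrictor peptide endothelin-1, rose by 6.80 (standard error 0.53, adjusted p = 1.80e-05). Further genes among the 20 largest rises were Csf2 (6.68), the gene of the growth factor GM-CSF, and Cd69 (6.57), an early activation antigen of leukocytes. Others were Mir155hg (6.31), the host transcript of a microRNA induced in activated macrophages, and Hdc (5.99), the histamine-forming enzyme. Ptx3 (5.96), a soluble pattern receptor, and the transcription factor genes Nr4a3 (6.25) and Gfi1 (5.95) were also among them. The other probe set of Ptx3 changed by only 0.25.

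The sequences before the start of the 6 genes with the largest rises are shown because these genes carry the strongest induction. Each is the 250 bases before the annotated start in RefSeq (GRCm38.p6), written 5′ to 3′ in the direction of transcription. Capitals mark matches on either strand to an NF-κB consensus site, the core of the interferon-stimulated response element (GAAANNGAA), an AP-1 site (TGANTCA), a cAMP response element (TGACGTCA) and the core of a TATA box (TATAAA), and no 2 matches overlap in these windows. The windows lie at chr2:129309973-129310222 on the minus strand (Il1a), chr5:30012864-30013113 on the plus strand (Il6), chr5:67607633-67607882 on the plus strand (Shisa3), chr11:44399813-44400062 on the plus strand (Il12b), chr5:92215409-92215658 on the minus strand (U90926) and chr13:42301226-42301475 on the plus strand (Edn1).
Il1a: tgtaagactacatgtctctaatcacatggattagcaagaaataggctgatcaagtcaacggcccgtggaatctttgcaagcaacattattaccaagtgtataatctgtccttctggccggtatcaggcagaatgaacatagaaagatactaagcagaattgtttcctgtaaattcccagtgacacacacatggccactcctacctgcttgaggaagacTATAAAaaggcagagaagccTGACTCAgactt
Il6: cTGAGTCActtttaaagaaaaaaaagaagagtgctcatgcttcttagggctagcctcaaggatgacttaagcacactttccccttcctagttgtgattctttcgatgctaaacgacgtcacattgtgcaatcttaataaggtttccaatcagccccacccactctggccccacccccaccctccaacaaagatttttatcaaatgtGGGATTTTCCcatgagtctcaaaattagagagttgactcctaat
Shisa3: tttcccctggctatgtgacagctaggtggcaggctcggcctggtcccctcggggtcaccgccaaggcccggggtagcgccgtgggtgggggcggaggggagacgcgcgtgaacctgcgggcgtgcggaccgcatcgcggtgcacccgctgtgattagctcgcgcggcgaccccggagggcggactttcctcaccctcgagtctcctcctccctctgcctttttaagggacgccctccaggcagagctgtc
Il12b: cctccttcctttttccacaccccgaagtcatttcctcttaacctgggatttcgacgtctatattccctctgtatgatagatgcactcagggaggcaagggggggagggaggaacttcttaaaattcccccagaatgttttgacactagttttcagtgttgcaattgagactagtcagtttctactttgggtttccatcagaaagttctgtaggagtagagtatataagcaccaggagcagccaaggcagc
U90926: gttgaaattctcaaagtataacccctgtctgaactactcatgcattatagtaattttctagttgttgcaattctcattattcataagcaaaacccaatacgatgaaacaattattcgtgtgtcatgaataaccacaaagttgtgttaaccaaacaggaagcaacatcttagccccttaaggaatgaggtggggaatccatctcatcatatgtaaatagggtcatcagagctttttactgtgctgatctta
Edn1: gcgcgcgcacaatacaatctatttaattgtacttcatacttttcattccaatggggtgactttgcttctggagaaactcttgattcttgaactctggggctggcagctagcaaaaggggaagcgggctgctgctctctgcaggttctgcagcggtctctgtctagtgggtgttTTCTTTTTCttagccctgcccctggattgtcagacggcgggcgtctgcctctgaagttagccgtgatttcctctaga

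Positions are counted back from the start, with -1 as the last base before it. Il1a held a TATA box core from -32 to -27 and an AP-1 match from -12 to -6. Il6 held the only NF-κB match among the 6, from -44 to -35, and an AP-1 match from -249 to -243. Edn1 held an interferon-stimulated response element core from -77 to -69. Shisa3, Il12b and U90926 held no match to these 5 patterns in this window. Among the 1034 genes called higher that have an entry in the promoter table, 6.7% held an NF-κB match, against 4.4% of the 14452 tested genes with an entry and 3.8% of all 27025 promoters in the table. The share was 10.7% among genes that rose at least 4-fold (338 entries) and 18.5% among those that rose at least 16-fold (65 entries), and 3.5% among genes called lower (1256 entries). For the interferon element the shares were 9.8%, 13.6% and 23.1% in the same 3 groups of risen genes, 5.2% in the fallen ones, 6.4% over the tested genes and 7.2% over the whole table. For AP-1 they were 7.0%, 11.2% and 13.8% in the risen genes, 4.1% in the fallen, 5.6% over the tested genes and 6.9% over the table. TATA box cores were found in 8.7%, 12.7% and 15.4% of the risen genes and 5.5% of the fallen ones, against 9.0% of the tested genes and 13% of the table, and cAMP response elements in 2.7%, 0.9% and 1.5% of the risen and 2.2% of the fallen, against 2.3% and 1.6%. These shares are a description of short windows and were not tested.

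Secreted cytokines held the largest rises and no gene called lower. Of 33 measured cytokine and growth factor genes 24 were higher (72.7%, against 7.09% of all genes) and 0 were lower. Their median log2 fold change was 3.31. Tnf, the gene of tumor necrosis factor, was at 9.02, 10.90 and 9.63 without LPS and at 13.68, 13.83 and 13.82 with it (3.93, standard error 0.40, adjusted p = 0.000104). Il1b, which encodes interleukin-1β, was at 8.11, 10.30 and 7.09 without LPS, highest on unstimulated replicate 2, and at 13.56, 13.72 and 13.88 with it. Its difference of 5.22 became 6.12 without that array. Il12a, which encodes the other subunit of interleukin-12, rose from 5.15, 5.76 and 6.14 to 10.94, 11.92 and 11.18, and Il23a, the partner of Il12b in interleukin-23, from 4.45, 4.54 and 4.22 to 8.24, 10.72 and 9.40. Ifnb1, the gene of interferon-β and the link to the antiviral response, rose from 5.84, 5.66 and 5.22 to 9.75, 8.96 and 10.07 (4.02, standard error 0.34, adjusted p = 2.84e-05). Anti-inflammatory products were induced in the same cultures. Il10, the gene of interleukin-10, rose by 3.62 (standard error 0.62, adjusted p = 0.00251) and Il1rn, which encodes the interleukin-1 receptor antagonist, by 1.94 (standard error 0.40, adjusted p = 0.00693). The colony-stimulating factor genes Csf1 (3.36), Csf2 and Csf3 (4.52) were all higher. The 9 members that did not pass included the growth factor genes Tgfb1 (0.21), Vegfa (-0.83) and Igf1 (-0.28). They also included the cytokine genes Il33 (1.79, adjusted p = 0.0605), Tnfsf8 (1.07), Tnfsf13b (0.15) and Il16 (-0.90).

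**Figure D3:**
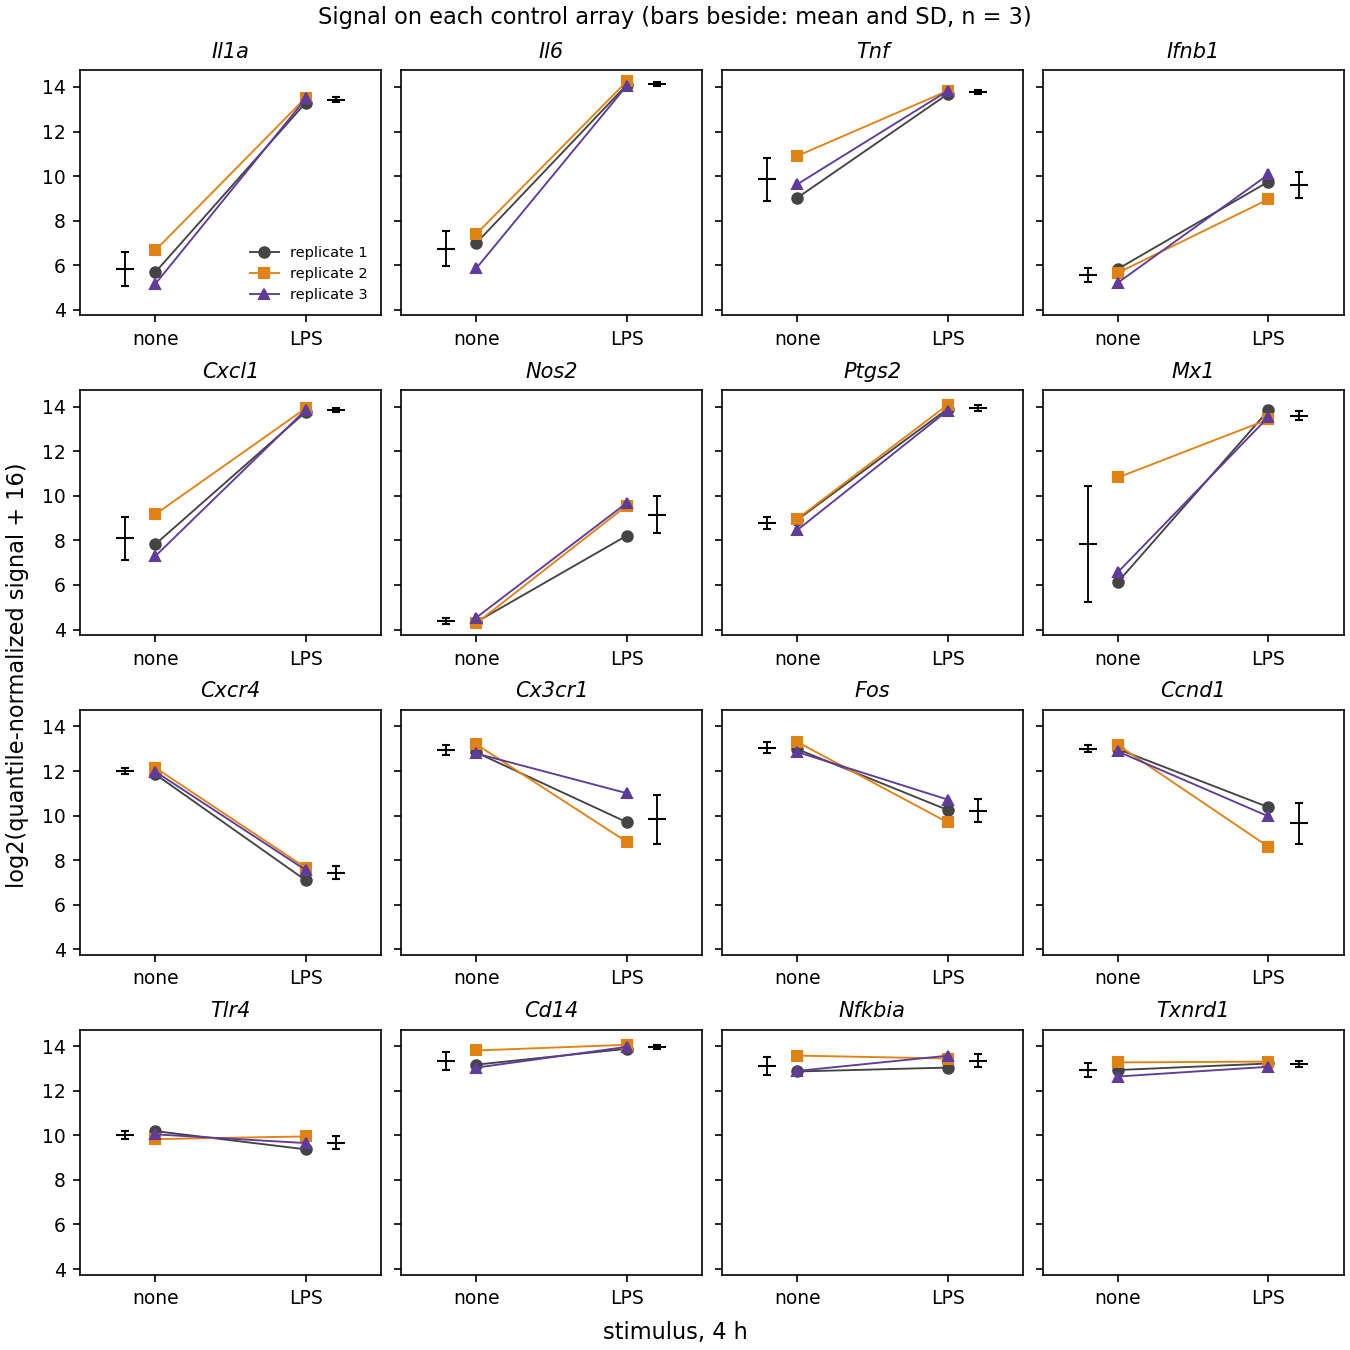
Log2(quantile-normalized signal + 16) of 16 genes (y axis) in unstimulated and LPS-stimulated control macrophages (x axis), with lines joining equal replicate numbers and the mean and SD (n = 3) beside the points. The arrays of the 2 conditions do not overlap for Il1a, Il6, Tnf, Ifnb1, Cxcl1, Nos2, Ptgs2 and Mx1, which were called higher, or for Cxcr4, Cx3cr1, Fos and Ccnd1, which were called lower, whereas Tlr4, Cd14, Nfkbia and Txnrd1 did not pass the test.

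Chemokines, the proteins that guide leukocytes to a site of infection, rose in a subset. Of 15 CXC chemokine genes 7 were higher (46.7%) and 1 (Cxcl14, -0.86) was lower (6.7%), or 8 and 0 without unstimulated replicate 2. Of 20 CC chemokine genes, counted with their XC and CX3C relatives, 8 were higher (40.0%) and 0 were lower. Over all genes the shares were 7.09% higher and 8.54% lower. The neutrophil attractants Cxcl1, Cxcl2 and Cxcl3 were among the chemokine genes that rose. Cxcl1 was at 7.83, 9.17 and 7.30 without LPS and at 13.77, 13.94 and 13.87 with it (5.76, standard error 0.45, adjusted p = 1.74e-05). Cxcl2 was already at 10.22, 12.89 and 9.15 without LPS and was at 13.90 or above on each LPS array, so that its difference was 3.20 (adjusted p = 0.016) and became 4.27 without unstimulated replicate 2. The T cell attractants Cxcl9, Cxcl10 and Cxcl11, which interferons induce, rose by 6.56, 4.33 and 4.14. Cxcl10 was at 7.60, 12.75 and 8.10 without LPS and at 13.75, 13.90 and 13.81 with it, and its difference was 5.97 without unstimulated replicate 2. Among the CC chemokines, Ccl22 rose by 6.06, Ccl5 by 5.27, Ccl4 by 4.36, Ccl17 by 4.12 and Ccl3 by 4.11. Ccl4 had the smallest standard error of these 5 (0.21), at 8.86, 9.30 and 9.01 without LPS and 13.18, 13.56 and 13.51 with it. The monocyte attractants Ccl2 (1.94, adjusted p = 0.0212) and Ccl7 (2.81, adjusted p = 0.0133) rose less, and Ccl12 (2.55, adjusted p = 0.0733) did not pass. The platelet-type chemokine genes Pf4 and Ppbp and the homeostatic Cxcl12 did not pass either, with changes of -0.12, -0.28 and -0.20. The calls of Cxcl2 and Cxcl10 were lost without unstimulated replicate 1 or 3, that of Cxcl2 also without LPS replicate 2, and that of Ccl7 without unstimulated replicate 1 or LPS replicate 3.

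Of 34 cytokine receptor genes 9 were higher (26.5%) and 3 were lower (8.8%), beside 7.09% and 8.54% of all genes, with a median of 0.20. Without unstimulated replicate 2 the counts were 8 and 2. Il15ra, which presents interleukin-15 to lymphocytes, rose by 3.17, the tumor necrosis factor receptor gene Tnfrsf1b by 2.07 and Il10ra, a chain of the interleukin-10 receptor, by 1.95. The probe sets of Il10ra ranged from -0.01 to 1.95. Tnfrsf21, a death receptor, fell by 1.95, Tgfbr2, a receptor of transforming growth factor β, by 1.56 and Il21r by 0.93. Several receptors that steer macrophages in tissue fell. Cxcr4, the receptor of CXCL12, was at 11.86, 12.15 and 11.97 without LPS and at 7.09, 7.65 and 7.55 with it, a difference of -4.56 (standard error 0.48, adjusted p = 0.00012). Cx3cr1, the fractalkine receptor, went from 12.83, 13.20 and 12.79 to 9.70, 8.82 and 11.01 (-3.10, standard error 0.52, adjusted p = 0.00215). Ccr2, the receptor of CCL2, fell by 2.39 (adjusted p = 0.0177) and C3ar1, the receptor of complement fragment C3a, by 0.79 (adjusted p = 0.00804). The call of Ccr2 was lost without LPS replicate 2 or without unstimulated replicate 3, and its probe sets ranged from -2.39 to -0.17. In the opposite direction Ccrl2, a chemerin-binding receptor, rose from 8.08, 8.55 and 8.03 to 12.92, 13.38 and 13.36 (5.0, standard error 0.22, adjusted p = 3.43e-07), and Ccr7, the lymph node homing receptor, rose from the floor of the scale by 2.43 (adjusted p = 0.00171). In all, 4 of 14 measured chemokine and chemoattractant receptor genes were lower (28.6%) and 2 were higher (14.3%, 4 genes with the replicate block). Of 27 G protein regulators and receptors for lipids and nucleotides 9 were lower (33.3%) and 1 was higher (3.7%), with a median of -0.87. The number higher was 2 with the replicate block or without unstimulated replicate 2. Gpr183, the oxysterol receptor, fell by 3.61, Gpr65, an acid sensor, by 3.38, S1pr1, a receptor of sphingosine 1-phosphate, by 1.93, and the nucleotide receptor genes P2ry6 and P2rx7 by 1.70 and 1.55, while P2ry14, the receptor of UDP-glucose, rose by 2.83.

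The genes of the LPS receptor itself changed little. Tlr4 was at 10.19, 9.83 and 10.04 without LPS and at 9.37, 9.95 and 9.65 with it (-0.36, standard error 0.29, adjusted p = 0.464). Ly96, which encodes MD-2, differed by 0.24 (standard error 0.26, adjusted p = 0.608). Cd14 was at 13.17, 13.81 and 13.04 without LPS and at 13.88, 14.06 and 13.97 with it, near the top of the scale. Its difference of 0.63 (standard error 0.21) had an adjusted p of 0.0703, of 0.0371 with the replicate block and of 0.0119 without unstimulated replicate 2. Downstream, 9 of 20 measured members of the TLR4 pathway were higher and 1 was lower (0 lower without unstimulated replicate 2), with a median of 0.67. Both adaptors rose, Myd88 by 1.45 (adjusted p = 0.00394) and Ticam1, which encodes TRIF, by 1.20 (adjusted p = 0.00305). The kinase gene Map3k8 rose by 3.54, the ubiquitin ligase gene Peli1 by 2.67 and Irak2 by 2.11. Among 21 other pattern receptors 13 were higher (61.9%) and 1 was lower (4.8%, 2 genes with the replicate block). The sensors of viral RNA Ifih1 (3.48), Ddx58 (3.08), Dhx58 (3.05) and Tlr3 (2.94), the peptidoglycan sensor Nod1 (3.27), the DNA sensor Aim2 (2.65) and the inflammasome sensor Nlrp3 (2.97) rose, as did the lipopeptide receptors Tlr1 (1.53), Tlr2 (1.43) and Tlr6 (1.37). Tlr13, which recognizes bacterial ribosomal RNA, fell from 13.09, 12.59 and 12.78 to 10.99, 10.33 and 10.84 (-2.10, standard error 0.22, adjusted p = 0.000103).

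NF-κB genes rose almost throughout. Of 10 measured genes of subunits and inhibitors 9 were higher (90.0%, against 7.09% of all genes) and 0 were lower. Their median was 2.76, and 8 were higher without unstimulated replicate 2. Rel, the subunit c-Rel, was at 7.37, 7.81 and 7.80 without LPS and at 10.98, 11.32 and 11.25 with it (3.52, standard error 0.19, adjusted p = 1.16e-06). Nfkb2 rose by 3.69, Relb by 2.69, Bcl3 by 2.74 and Rela by 1.18. The inhibitor genes Nfkbiz (3.42), Nfkbie (3.06) and Nfkbib (2.77) were higher. Nfkbia, which encodes IκBα, was at 12.87, 13.58 and 12.89 without LPS and at 13.04, 13.45 and 13.57 with it. Its brightest probe set changed by 0.24 (standard error 0.24, adjusted p = 0.567), and its 5 probe sets ranged from 0.24 to 2.18, so this gene depends on the probe set read. Of 30 feedback inhibitors, a list that also holds Nfkbia, 19 were higher (63.3%) and 0 were lower, with a median of 1.84. They include the cytokine signaling suppressors Socs3 (5.66), Socs1 (5.17) and Cish (4.32), the MAP kinase phosphatases Dusp2 (4.25) and Dusp16 (3.56), the ubiquitin-editing enzyme A20, encoded by Tnfaip3 (3.02), the RNase Zc3h12a (3.86) and the RNA-binding protein Zfp36 (1.65). Socs1 was at 4.95, 6.28 and 5.11 without LPS and at 10.32, 11.12 and 10.41 with it. Dusp1 (0.77) and Atf3 (0.63) were higher by values that did not pass.

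Transcription factors of the early response had split by 4 h. Of 40 immediate early and related transcription factor genes 15 were higher (37.5%) and 9 were lower (22.5%), beside 7.09% and 8.54% of all genes. Their median was 0.11, and 14 were lower without unstimulated replicate 2. Fos, the best known immediate early gene, was at 12.99, 13.31 and 12.86 without LPS and at 10.25, 9.70 and 10.72 with it (-2.83, standard error 0.42, adjusted p = 0.00103). Jun, its partner in AP-1, fell by 1.83 (adjusted p = 0.00304), while Junb rose by 1.87. Myc, a driver of growth, went from 10.62, 11.62 and 10.35 to 8.03, 8.78 and 8.31 (-2.49, standard error 0.32, adjusted p = 0.000481). Id1 (-2.68), Klf10 (-2.40), Id3 (-1.76), Klf4 (-1.37) and Klf2 (-0.83) were also lower. The nuclear receptor gene Nr4a3 rose from 4.36, 5.26 and 4.69 to 11.00, 10.47 and 11.60. Its probe sets did not behave alike, with differences from 0.33 to 6.25. Batf2 (3.57), Nfil3 (2.98), Batf (2.81), Maff (2.69), Ier3 (2.27) and Cebpd (2.19) rose as well. Egr1 was at 10.93, 8.85 and 11.22 without LPS and 8.66, 10.01 and 9.21 with it, so that the groups overlapped (adjusted p = 0.272).

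Antiviral interferon-stimulated genes, the longest list, held the most genes called higher. By share, 85.4% of them were higher, against 90.0% of the NF-κB list and 7.09% of all genes. The values of the antiviral genes rested most on which unstimulated array was read. Of 48 antiviral interferon-stimulated genes 41 were higher and 0 were lower, with a median of 2.76, and 47 were higher, with a median of 3.51, without unstimulated replicate 2. Their median SD was 1.53 among unstimulated arrays and 0.15 after LPS, against 0.31 and 0.34 over all genes. Mx1, which encodes a GTPase, was at 6.13, 10.82 and 6.58 without LPS and at 13.84, 13.44 and 13.54 with it (5.76, standard error 0.92, adjusted p = 0.00165). Without unstimulated replicate 2 its difference was 7.25 (standard error 0.26). Ifit1, which binds foreign RNA, was at 7.12, 11.46 and 7.57 without LPS and at 13.46, 13.56 and 13.61 with it (4.83, adjusted p = 0.00343). Rsad2, which encodes viperin, went from 8.34, 12.75 and 8.78 to 13.68, 14.02 and 13.92 (3.92, adjusted p = 0.0119, and 5.31 without that array). For all 3 genes the stimulated arrays lay close together and above the unstimulated ones, of which replicate 2 stood far above the others. Oasl1 (5.53), Cmpk2 (4.90), Isg20 (4.77) and Irf7 (3.62), the transcription factor that amplifies interferon production, rose likewise. Trim21 (2.77, adjusted p = 0.000102) and Samhd1 (2.16, adjusted p = 0.000291) had the smallest p-values, with unstimulated levels of 9.64, 10.59 and 9.68 and of 10.81, 11.57 and 10.43. Oas2 (2.18, adjusted p = 0.0511) and Oas1a (1.07, adjusted p = 0.0773), which sense viral RNA, did not pass with all arrays and did without unstimulated replicate 2 (adjusted p = 0.000862 and 0.00144). Ifi27 changed by -0.24 and did not pass.

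Interferon-inducible GTPases, which attack the vacuoles of intracellular microbes, were the list with the highest median, 4.60. Of 11 measured 9 were higher (81.8%, against 7.09% of all genes) and 0 were lower. Iigp1 rose by 5.36, Gbp7 by 4.98, Gbp2 by 4.89, Gbp3 by 4.78 and Gbp6 by 4.60. Gbp2b did not pass (adjusted p = 0.15). It was at 6.52, 4.50 and 6.95 without LPS and at 13.17, 6.29 and 12.80 with it, lowest on replicate 2 in both conditions. Among 18 genes of IRFs, JAKs and STATs 7 were higher (38.9%) and 1 (Stat6, -0.88) was lower (5.6%, against 8.54% of all genes). Irf1 was at 9.67, 10.69 and 9.62 without LPS and at 13.31, 12.80 and 13.03 with it (3.05, standard error 0.27, adjusted p = 4.09e-05). Stat5a rose by 2.92, Jak2 by 2.63, Stat2 by 2.56 and Stat3 by 1.5, whereas Irf3, the factor that TRIF activates, changed by -0.40 and did not pass (adjusted p = 0.291).

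Effector enzymes rose in part of the group. Of 34 antimicrobial and lipid mediator genes 15 were higher (44.1%) and 1 (Alox5ap, -0.77) was lower (2.9%), beside 7.09% and 8.54% of all genes. The number lower was 2 with the replicate block or without unstimulated replicate 2. Ptgs2, the inducible cyclooxygenase, was at 8.91, 8.96 and 8.46 without LPS and at 13.90, 14.08 and 13.83 with it (5.16, standard error 0.25, adjusted p = 6.21e-07), and Ptges, the next enzyme towards prostaglandin E2, rose by 4.03. Nos2, the inducible nitric oxide synthase, was at the floor of the scale without LPS (4.34, 4.28 and 4.53) and at 8.21, 9.57 and 9.69 with it (4.77, standard error 0.87, adjusted p = 0.00361). Of the genes that feed it with arginine and cofactor, Slc7a2 (2.09), Gch1 (2.09) and, at the edge of the threshold, Ass1 (1.79, adjusted p = 0.049) rose too. Asl, the enzyme after Ass1, changed by -0.36 and did not pass (adjusted p = 0.342). Arg2 rose by 3.46, while Arg1, the arginase of alternatively activated macrophages, changed by -1.55 and did not pass (adjusted p = 0.433). The iron-withholding protein gene Lcn2 (3.95), the acute phase gene Saa3 (5.26), the complement factor gene Cfb (5.20) and Hp (3.90) were higher. Acod1, which makes itaconate, was at 6.76, 12.78 and 4.89 without LPS and at 12.90, 13.38 and 13.42 with it. Its difference of 5.09 (standard error 1.59) had an adjusted p of 0.052, of 0.0202 with the replicate block and of 0.000445 without unstimulated replicate 2, where the difference was 7.41. The oxidase subunits Cybb (0.38), Ncf1 and Cyba did not pass.

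Costimulation and peptide transport genes rose. Of 27 antigen presentation genes 16 were higher (59.3%, against 7.09% of all genes) and 0 were lower (1 lower with the replicate block). Cd40, which receives help from T cells, went from 7.93, 10.55 and 8.03 to 13.72, 13.75 and 13.65 (4.87, standard error 0.55, adjusted p = 0.000206). Cd83 rose by 3.80, Cd274, which encodes PD-L1, by 3.63, Icosl by 2.81, Cd86 by 2.05 and Cd80 by 1.28. The other probe set of Icosl changed by only 0.02. The peptide transporter genes Tap1 (3.21) and Tap2 (2.25), the class I regulator gene Nlrc5 (3.59) and the immunoproteasome genes Psmb9 (1.75), Psmb10 (1.23) and Psmb8 (0.88) rose. The probe sets of Tap1 ranged from 0.27 to 3.21. The class I genes H2-K1 and B2m, with levels near the highest of these arrays in all cultures (13.32 to 13.56 for H2-K1), had differences of 0.03 and 0.00, and a further probe set of H2-K1 one of 1.04. Whether these probe sets could show a rise at such levels was not tested. The class II genes H2-Aa (-0.30) and H2-Ab1 (0.29) did not pass. H2-Ab1 was at 10.98, 13.09 and 10.49 without LPS and at 11.38, 13.31 and 10.75 with it, so that replicate 2 was the highest in both conditions.

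Of 26 cell death and inflammasome genes 12 were higher (46.2%) and 2 were lower (7.7%), beside 7.09% and 8.54% of all genes. Casp4, the caspase that binds LPS inside the cell, rose from 5.85, 6.92 and 6.12 to 11.04, 10.52 and 10.01 (4.23, standard error 0.32, adjusted p = 1.55e-05). The death receptor gene Fas (3.92) and the necroptosis effector gene Mlkl (2.70) rose. So did genes that protect from death, Traf1 (5.76), Gadd45b (3.47), Cflar (2.53), Birc3 (2.36) and Birc2 (1.93). The probe sets of Gadd45b ranged from 0.66 to 4.09. Bcl2, the founding survival gene, fell by 2.20 (adjusted p = 0.00286) and the inflammasome adaptor gene Pycard by 1.25 (adjusted p = 0.0119).

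**Figure D4:**
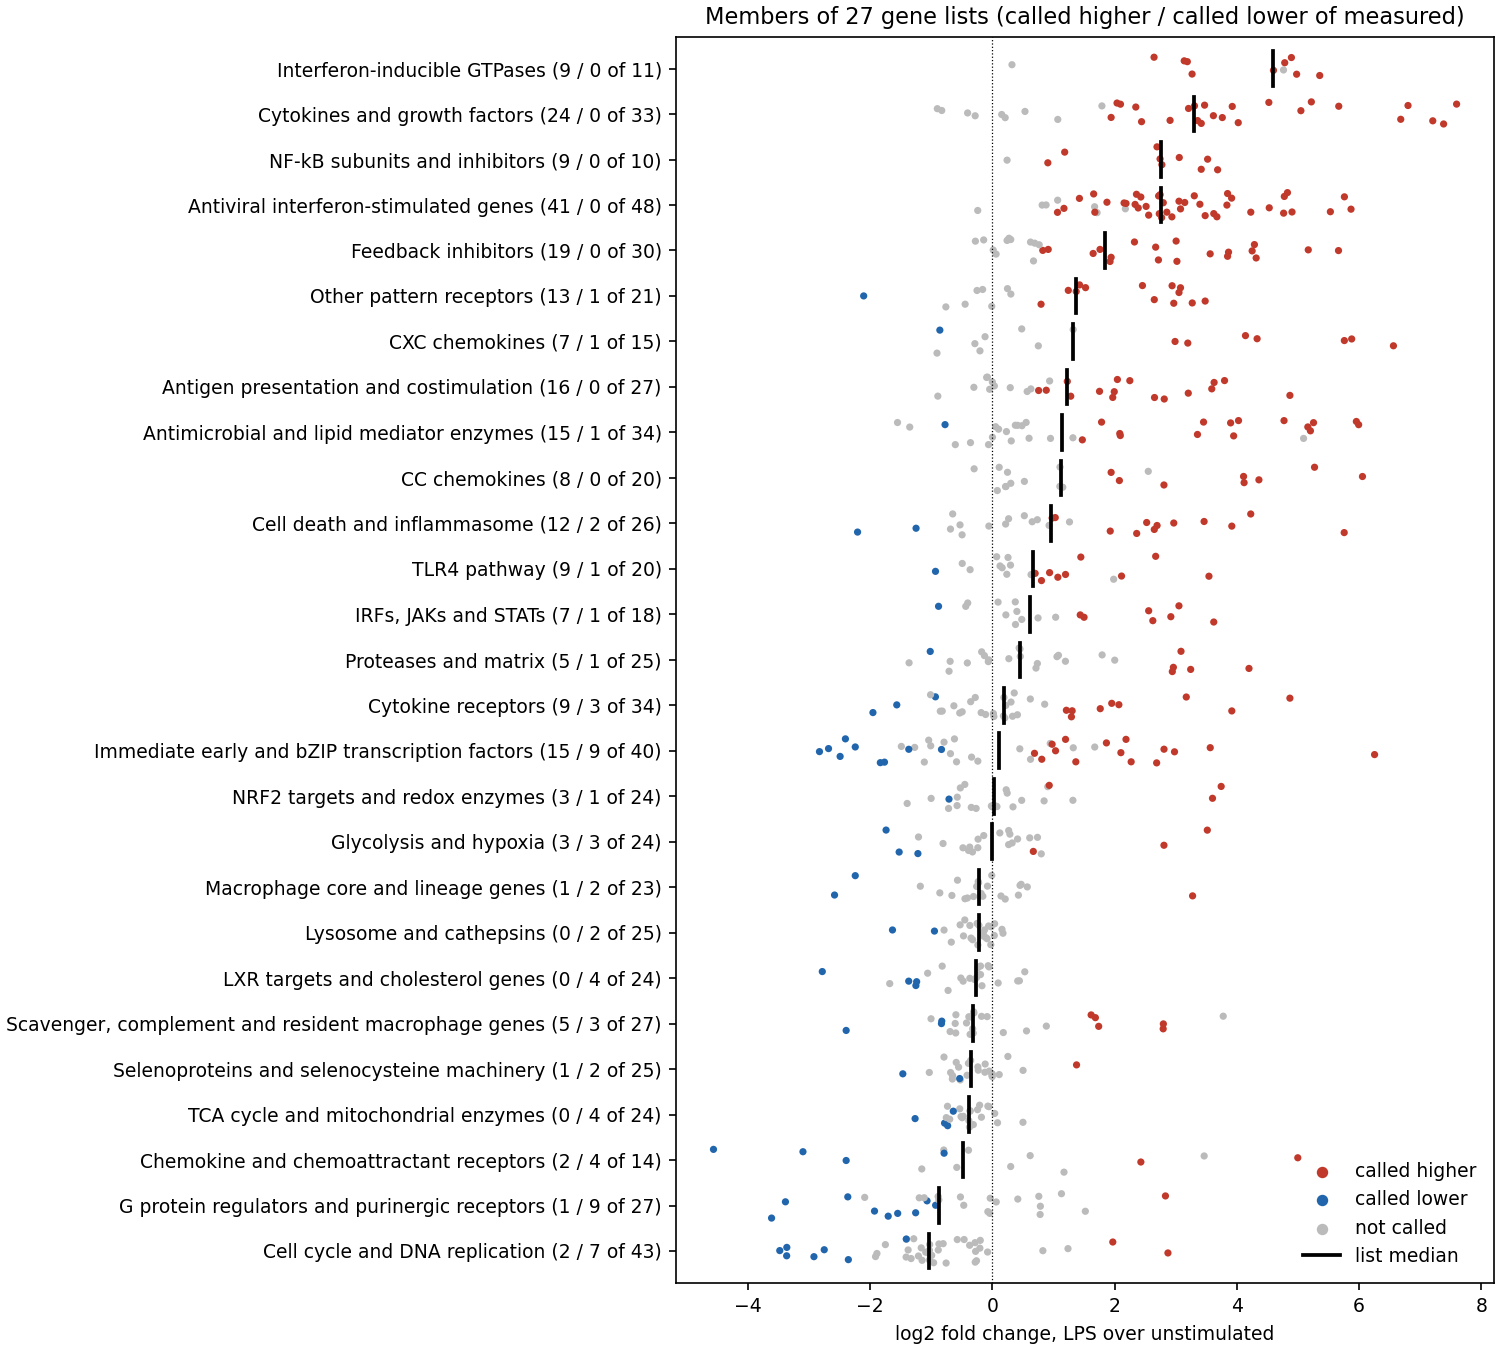
Log2 fold change by LPS (x axis) of the measured members of 27 gene lists (y axis, ordered by median, with the numbers called higher and lower), each point a gene and each black bar the median of a list. Medians ran from 4.60 for the interferon-inducible GTPases to -1.03 for the cell cycle genes, and the 5 lists with the highest medians held no gene called lower.

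The largest fall was that of Cd300lb. Cd300lb, an activating receptor of myeloid cells, was at 13.21, 12.80 and 12.84 without LPS and at 8.63, 6.89 and 7.89 with it (-5.15, standard error 0.37, adjusted p = 1.19e-05). Gcnt1, an enzyme that branches O-glycans, fell from 11.77, 11.89 and 11.69 to 7.50, 5.72 and 7.32 (-4.94, standard error 0.51, adjusted p = 0.000103). In both genes the stimulated cultures varied more than the unstimulated ones, with LPS replicate 2 the lowest. Cdca7, a gene of the DNA replication phase, was at 9.03, 8.43 and 9.58 without LPS and at the floor, 4.59, 4.52 and 4.33, with it (-4.53, standard error 0.28, adjusted p = 3.55e-06). Sesn1, a stress-induced regulator of growth signaling, fell by 4.29, Cnr2, the cannabinoid receptor of immune cells, by 4.27, Rasgrp3, an activator of Ras proteins, by 4.10 and Lpar6, a lysophosphatidic acid receptor, by 3.43. Snx24 (-3.94), Lhfpl2 (-3.83), Mtss1 (-3.81), Nbeal2 (-3.70), Susd3 (-3.69), Otulinl (-3.67), Cdk20 (-3.44) and Tmem86a (-3.41) were also among the 20 largest falls. Sox4 (-3.61) was the only one of these besides Neurl1a with a probe set of the opposite sign (0.71 and 0.64), so that the direction of these 2 depends on the probe set read.

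Cell cycle genes had the lowest median of the lists, -1.03. Of 43 measured, 7 were lower (16.3%) and 2 were higher (4.7%), beside 8.54% and 7.09% of all genes. When the replicate numbers were used as a block, 27 were lower. The mean over the list was 10.33, 9.15 and 11.01 without LPS and 9.24, 8.40 and 9.92 with it, so that each culture was lower after LPS than the unstimulated culture of the same number. The genes called lower were cyclins, E2F factors, replication licensing genes and the gene of a licensing inhibitor. Ccnd1, cyclin D1, was at 12.98, 13.17 and 12.88 without LPS and at 10.38, 8.60 and 9.96 with it (-3.36, standard error 0.44, adjusted p = 0.000503). E2f2 fell by 3.48, E2f1 by 1.41, Ccne2, cyclin E2, by 2.75, and the replication licensing genes Cdc6 by 2.92 and Cdt1 by 2.35. Gmnn, which encodes the licensing inhibitor geminin, fell by 3.36. Neither the replicative helicase genes Mcm2 to Mcm7 (between -1.91 and -1.15) nor the mitosis genes Top2a (-0.46), Cdk1 (-0.76) and Plk1 (-0.88) passed, and Mki67 was at 11.58, 9.49 and 12.41 without LPS and at 11.57, 12.27 and 12.12 with it. The 2 genes that rose were Cdkn1a (1.97, adjusted p = 9.73e-05), the inhibitor p21, and Ccnd2, cyclin D2 (2.87).

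Of 23 macrophage core and lineage genes 1 was higher (4.3%) and 2 were lower (8.7%), beside 7.09% and 8.54% of all genes, and 4 were lower with the replicate block. The mean over the list lay between 11.85 and 12.13 on all arrays. The genes called were Tfec, a relative of MITF, which rose by 3.28 (adjusted p = 0.000278), and the transcription factor genes Pparg (-2.58, adjusted p = 0.00323) and Cebpa (-2.24, adjusted p = 0.000413), which fell. Cebpa was at 12.03, 11.31 and 12.32 without LPS and at 9.76, 9.68 and 9.50 with it. Of 27 scavenger, complement and resident macrophage genes 5 were higher (18.5%) and 3 were lower (11.1%, 6 genes with the replicate block). Olr1, a receptor of oxidized LDL, and Timd4, a receptor of dying cells, rose by 2.80 each, and the Fc receptor genes Fcgr4 and Fcgr2b by 1.74 and 1.69. The call of Fcgr4 was lost without unstimulated replicate 1, and the probe sets of Fcgr2b ranged from 0.32 to 2.45. Stab1 (-0.83) and Cd163 (-0.83), both scavenger receptors of resident cells, were lower. Marco was at 4.35, 9.38 and 5.08 without LPS and at 8.70, 11.55 and 9.89 with it, an array-dependent difference of 3.78 that did not pass (adjusted p = 0.0904) unless the replicate block was used (0.00532) or unstimulated replicate 2 was left out (0.0133). Pdgfrb, a receptor known from stromal cells and listed here as a stromal marker, rose from 136.8, 42.3 and 173.1 to 2058.3, 3941.6 and 2115.6 in linear signal (4.45, standard error 0.58, adjusted p = 0.000467), while none of Col1a1, Col1a2, Col3a1, Dcn and Sparc passed.

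Single genes of fatty acid and sterol synthesis were among the metabolic genes that fell. Among 24 LXR target and cholesterol genes 4 were lower (16.7%, against 8.54% of all genes) and 0 were higher, namely Scd2 (-2.78), Sqle (-1.37), Stard4 (-1.25) and Fasn (-1.24), and 7 were lower with the replicate block. The sterol synthesis genes Hmgcs1 (-0.48), Fdft1 (-0.51), Fdps (-0.72), Idi1 (-0.37), Lss (-0.82) and Dhcr7 (-1.68) did not pass. Lss and Dhcr7 passed with the replicate block. The fatty acid synthesis genes Scd1 (-0.07) and Acaca (-0.19) did not pass, nor did the cholesterol exporter genes Abca1 (0.42) and Abcg1 (-0.19). Among 24 genes of the TCA cycle and mitochondrial enzymes 4 were lower (also 16.7%) and 0 were higher (9 lower with the block, 2 without unstimulated replicate 2). Acadm, which starts the breakdown of medium-chain fatty acids, went from 12.01, 11.65 and 11.59 to 10.76, 10.08 and 10.64 (-1.26, standard error 0.23, adjusted p = 0.00391). Idh3a (-0.78) and Idh1 (-0.73), which encode isocitrate dehydrogenases, were lower. Idh3a has a probe set of the opposite sign (0.53), so that its direction depends on the probe set read. Among 24 glycolysis and hypoxia genes 3 were higher (5 without unstimulated replicate 2) and 3 were lower, each 12.5%. Slc2a6, a sugar transporter of the lysosome membrane, rose from 9.04, 9.80 and 8.86 to 12.64, 12.72 and 12.90 (3.52, standard error 0.26, adjusted p = 1.37e-05), and Pfkfb3, which raises the activator of phosphofructokinase, by 2.81. The glucose transporter gene Slc2a1 (0.33), Hk2 (0.74) and Hif1a (0.41) did not pass. Of 25 lysosome genes 2 were lower (8.0%, against 8.54% of all genes) and 0 were higher. Among the lower was Tfeb (-1.63, adjusted p = 0.00131), the transcription factor of lysosome formation. The call of Scd2 was lost without LPS replicate 2 or unstimulated replicate 1 or 3, that of Fasn without LPS replicate 1 or 2 or unstimulated replicate 3, and that of Idh3a without LPS replicate 1 or unstimulated replicate 2.

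Selenoprotein genes need the tRNA encoded by Trsp for their products. Of 25 genes of selenoproteins and of the machinery that inserts selenocysteine 1 was higher (4.0%) and 2 were lower (8.0%, 3 genes without unstimulated replicate 2), beside 7.09% and 8.54% of all genes, with a median of -0.35. Selenow, a small redox protein, rose from 10.27, 10.88 and 10.91 to 12.17, 11.82 and 12.22 (1.38, standard error 0.28, adjusted p = 0.00688). Pstk, the kinase that acts on the charged tRNA, fell by 1.46 (adjusted p = 0.0215), and Selenof by 0.53 at the edge of the threshold (adjusted p = 0.0497). The call of Pstk was lost without LPS replicate 1 or 2 or unstimulated replicate 1 or 3 and that of Selenof without any 1 of the 6 arrays, and Selenof has a probe set of the opposite sign (0.21). With the replicate block 5 of the 25 were lower, among them Msrb1 (-1.03, adjusted p = 0.0037), a methionine sulfoxide reductase. Txnrd1, thioredoxin reductase 1, was at 12.93, 13.27 and 12.64 without LPS and at 13.22, 13.31 and 13.08 with it (0.26, standard error 0.21, adjusted p = 0.482), and its 3 probe sets differed from 0.26 to 0.75. Gpx1, glutathione peroxidase 1, was at 13.24, 13.02 and 13.39 without LPS and at 12.96, 12.08 and 13.04 with it (-0.52, standard error 0.27, adjusted p = 0.233). Gpx4, the peroxidase of membrane lipids, changed by -0.59 and did not pass. For Txnrd1 and Gpx1 the arrays of the groups overlapped.

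Most other redox genes were not called. Of 24 NRF2 target and redox genes 3 were higher (12.5%) and 1 was lower (4.2%), beside 7.09% and 8.54% of all genes. The counts were 6 and 4 with the replicate block, and 4 and 0 without unstimulated replicate 2. Slc7a11, the cystine importer, went from 7.28, 10.07 and 7.60 to 11.55, 12.68 and 11.96 (3.74, standard error 0.68, adjusted p = 0.00348), and the metallothionein gene Mt2 from 8.93, 9.06 and 9.63 to 12.78, 13.14 and 12.52 (3.60, standard error 0.24, adjusted p = 7.42e-06). The classical NRF2 targets Nqo1 (0.34), Hmox1 (-0.71) and Gclm (-1.0) did not pass. Sod2, the mitochondrial superoxide dismutase, was at 11.81, 13.49 and 11.73 without LPS and at 13.55, 13.74 and 13.70 with it (1.32, adjusted p = 0.0664), and passed with the replicate block (0.0234) and without unstimulated replicate 2 (0.00307). Among 25 protease and matrix genes 5 were higher (8 with the replicate block) and 1 (Adam8, -1.01) was lower. The aggrecan-cleaving protease gene Adamts4 (4.20), the collagenase genes Mmp14 (3.09) and Mmp13 (2.95), the proteoglycan gene Sdc4 (3.25) and the protease inhibitor gene Serpinb2 (2.96) rose. The other probe set of Sdc4 changed by 0.60, and the call of Serpinb2 was lost without LPS replicate 2 or unstimulated replicate 1 or 3.

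Some genes went from near the background to a clear signal. A linear signal under 64 on all unstimulated arrays and of at least 8 times that bound on all LPS arrays was found for 16 genes (at most 62.5 before and at least 555.1 after LPS): Csf2, Edn1, Gfi1, Hdc, Il12a, Itgb8, Mir155hg, Mycl, Nr4a3, Plet1, Shisa3, Socs1, U90926, BC018473, Cd247 and Col27a1. The reverse was found for 1 gene, Neurl1a, at 526.5 to 679.7 without LPS and at 23.5 to 52.9 with it. Csf2 ran from 788.6 to 5877.1 after LPS, with at most 6.6 before it, and U90926 from 1477.5 to 8826.3, with at most 10.2 before it. Itgb8, an integrin subunit, ran from 22.0 to 30.6 before and from 2156.7 to 3466.5 after LPS (log2 fold change 6.10, standard error 0.21, adjusted p = 8.82e-08). Cd247, the signaling chain of T cell and NK cell receptors, rose to between 929.0 and 1118.5, from at most 37.1 before it. Of the 4 T cell markers, Cd3d, Cd3e and Cd3g were at or below 42.2 on all 6 arrays, and Cd8a was at 51.2, 63.9 and 19.9 without LPS and at 65.2, 73.2 and 78.2 with it (adjusted p = 0.393).

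Knockout macrophages made it possible to ask which of these responses differed between the genotypes. In them 1326 genes were higher and 1548 lower after LPS in the same fit. Of the 2844 genes called in control cells 2802 had the same sign in knockout cells, and 2125 were called in both in the same direction, which is 74.7% of the control genes and 73.9% of the knockout genes. Across all genes the log2 fold changes of the genotypes had a Pearson r of 0.866, a description across genes, which are not independent replicates. For Il6 the change was 7.38 in control and 8.22 in knockout cells, for Tnf 3.93 and 3.57, for Cxcl1 5.76 and 6.37, for Cxcr4 -4.56 and -2.89, and for Mt2 3.60 and 1.67. In the test of the difference of the responses (interaction), 0 of 18193 genes passed an adjusted p of 0.05 from limma, 555 (3.05%) had an unadjusted p under 0.05, and the smallest adjusted p was 0.0766. It belonged to Tmem132e (1.95 in control and -0.32 in knockout cells), whose probe sets in control cells range from -0.87 to 1.95, and to Gm26844, and the next smallest (0.169) to Epha1 (0.63 and 2.89), Fibcd1 and Muc16. The 4 genes called in both genotypes but in opposite directions were Fibcd1 (1.26 and -0.90), Gm26844 (-0.96 and 1.53), Muc16 (0.68 and -1.01) and Oas1f (1.11 and -1.0), all with a mean level under 7 in each control condition. In control cells the call of Muc16 was lost without any 1 of the 6 arrays and that of Gm26844 without LPS replicate 1 or unstimulated replicate 3.

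**Figure D5:**
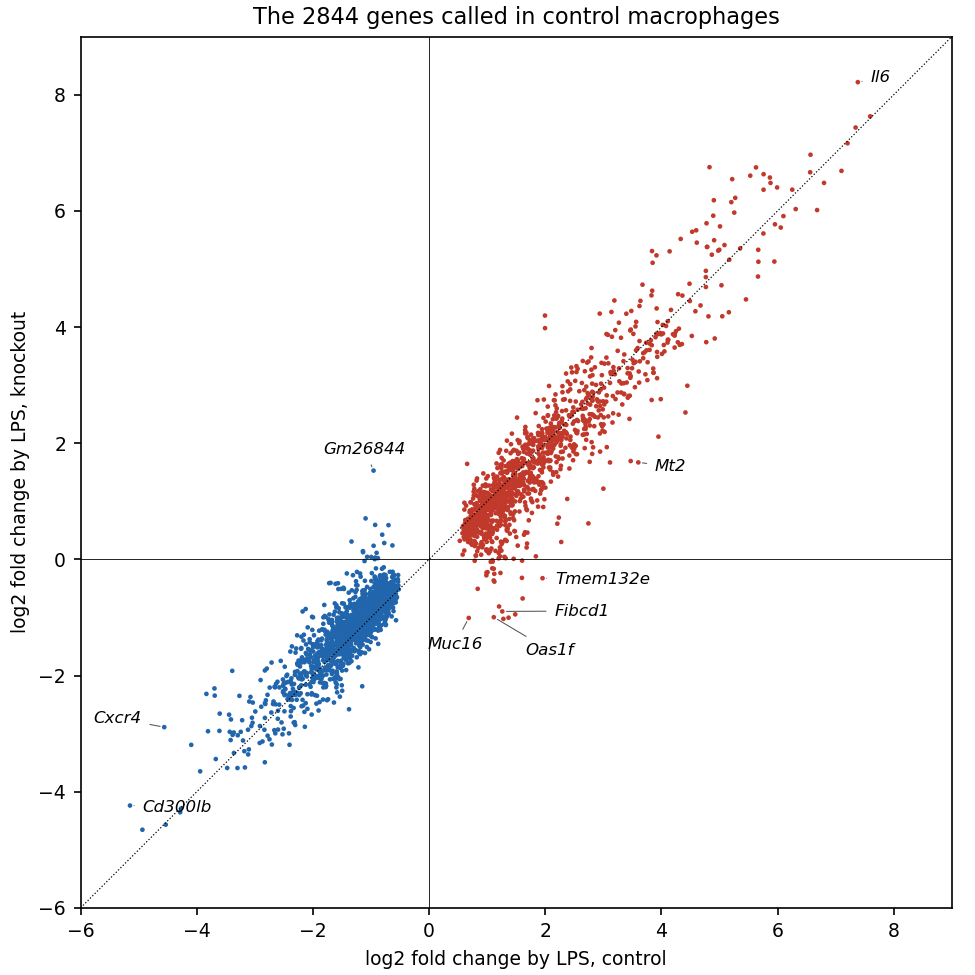
Log2 fold change by LPS in knockout macrophages (y axis) against that in control macrophages (x axis) for the 2844 genes called in control cells, red where higher and blue where lower. Of them 2802 had the same sign in both genotypes, and the dotted line marks equal change.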

How the data were processed

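Signals of 45101 probe sets on 12 arrays were used. Per the study's methods the authors normalized them in Expression Console. The deposited values are linear intensity, and how probes were summarized is not stated in the sources read. Control probe sets (64) were left out, 34945 probe sets had 1 gene symbol in the platform annotation, and the brightest was taken for each of 18193 genes. Signals were quantile-normalized over all arrays and tested as log2(signal + 16) with limma 3.58.1 in R 4.3.3, all 4 groups in 1 fit with 8 residual degrees of freedom and no covariate. Calls have a Benjamini-Hochberg adjusted p under 0.05. Nothing states that replicates came from separate mice, and p-values then measure only the spread between these arrays. For a single gene, 3 arrays against 3 cannot give an exact two-sided permutation p below 0.1.

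Deviations from the group means correlated between same-numbered unstimulated and LPS control arrays (r = 0.209, 0.358 and 0.288) and not between other numbers (-0.273 to 0.008). Same-numbered unstimulated arrays of the 2 genotypes correlated too (r = 0.173, 0.442 and 0.375), so a number was not particular to the control cultures. The numbers were used to pair cultures in the same-numbered differences and in the replicate block. The main fit, which gave the calls, does not use them. The pairing comes from the data, and the labels do not say what a number stands for.

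Genes named were the 20 largest rises and falls whose groups do not overlap, of each list the 6 or fewer measured members with the lowest p, 5 receptor and adaptor genes, 6 genes the study followed, 3 genes on either side of the threshold and the 5 smallest interaction p-values. Further members were named after their values were seen. The lists and the question were chosen with earlier results of these data known. The scripts were tested on simulated data. Alternatives covered scaling, the added constant, probe sets, a filter, the samples fitted, pairing, the variance model, the methods' t-test and single arrays left out.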

Additional observations from a re-analysis of the deposited data

Results flagged for a closer look

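Signals were also found in probe sets that the gene-level comparison did not use. Of 9160 probe sets without a gene symbol in the platform annotation 333 were called higher and 267 lower after LPS in control macrophages, and of 932 with several symbols 61 were called higher and 55 lower, in limma over all probe sets. Of the 34945 with 1 symbol 2058 were called higher and 2189 lower in that fit. Both are larger shares than among those without a symbol. The strongest of those without a symbol was at 6.22, 8.03 and 5.77 without LPS and at 11.98, 12.91 and 11.98 with it (log2 fold change 5.62, standard error 0.57, adjusted p = 0.000133). The strongest fall went from 10.46, 10.31 and 9.70 to 4.87, 6.43 and 4.85 (-4.77, standard error 0.45, adjusted p = 8.26e-05). Neither is named here.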

How the results depend on the processing

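No alternative called a gene of the control response in the opposite direction. Where every probe set was counted, this compared only the brightest of each gene. The other probe sets of a gene entered it only through their mean, and for some genes they differ in sign. Without scaling of the arrays 398 genes were higher and 495 lower, and the median change of all genes moved to -0.25. With the methods' t-test and Benjamini-Hochberg adjustment the counts were 427 and 397, and at its unadjusted threshold of 0.01 they were 911 and 1068. Counting every probe set gave 2182 and 2362. Fitting only the 6 control arrays left 1028 genes lower, or 1011 when those arrays were also normalized alone. With the replicate block (paired cultures) 2444 genes were lower and 1664 higher, and the interaction had 0 calls. Leaving out 1 control array gave 932 to 1204 genes higher and 950 to 1334 lower, and the low counts of 950, 982 and 989 came without unstimulated replicate 3, LPS replicate 2 and unstimulated replicate 1. Leaving out number 2 in all groups, an alternative chosen after seeing the data, gave 1104 and 1093. The interaction called 3 genes with log2(signal + 1), namely Fibcd1 (-4.81), Gm26844 (5.63) and Tmem132e (-3.63), and 1 gene, Gm26844 (2.84), without LPS-stimulated knockout replicate 2, whose mean signal of 199.7 was the lowest of all arrays. Without that array 1353 genes of the control response were higher and 1740 lower. With single arrays left out the interaction had 0 to 1 calls. Stricter bounds on signal left 4 genes switched on and 0 switched off, and looser bounds gave 78 and 32. Of the values of named genes under all alternatives 3821 kept their direction and side of the threshold, 328 kept only their direction and lost the call, and 65 kept it and gained the call. The other 2, of Ly96 and Epha1, changed sign at a size of at most 0.08 without being called. The cause was not tested. Nearest to the threshold lay Npc1 (-0.95), Mgat2 (-0.97) and Lipe (0.77, with its other probe set at -0.23) among the genes called. Among those not called the nearest were Klhl32 (0.83), Mrpl50 (-0.71) and Zdhhc13 (-0.59). Of these, the replicate block added the last 3 and removed Npc1, and it also added Trem2, Dhcr7, Lss, Idh3b and Ctsh. Signals at the top of the scale, where Cd14, Nfkbia, H2-K1 and B2m lie, and near the background limit what differences could be measured.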

Other observations

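The arrays numbered 2 differed from numbers 1 and 3 in a few genes in both genotypes and both conditions, in a description made after seeing the data. For 4 genes (Arsb, Cald1, Cd34 and Cdh11) number 2 lay at least 2 log2 units below both other arrays in each of the 4 groups, and for 0 genes it lay that far above. Arsb, which encodes the lysosomal enzyme arylsulfatase B, was at 12.27, 9.14 and 11.77 in unstimulated and at 11.84, 9.07 and 11.55 in LPS-stimulated control cells, and in knockout cells at 12.43, 9.94 and 12.57 and at 12.17, 9.82 and 12.11. The class II gene H2-Ab1 was the reverse, at 9.88, 12.34 and 9.57 in unstimulated and at 11.21, 12.96 and 10.83 in stimulated knockout cells, as it was highest on number 2 in control cells. The interferon-inducible GTPase gene Gbp2b split the LPS arrays differently. It was at 13.17, 6.29 and 12.80 in control cells and at 12.85, 12.77 and 5.89 in knockout cells after LPS, so that the low array was number 2 in control and number 3 in knockout cells.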
